A study of Mus musculus with 6 samples.

Results

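The genes described here are nuclear genes named for subunits of mitochondrial respiratory complexes II to V, with that of cytochrome c, measured in the heart ventricles of dystrophic mice. They were taken by gene symbol from the probe sets whose platform annotation gives exactly 1 symbol, with patterns for the subunits of succinate dehydrogenase (Sdha to Sdhd), the Uqcr genes, Cox4 to Cox8, the Atp5 genes, Cyc1 and Cycs, leaving out pseudogenes marked "-ps". This gave 50 of 30142 measured genes: 4 of complex II, 9 of complex III, 18 of complex IV, 18 of complex V and cytochrome c itself. Where a gene had several probe sets, the brightest was used. The rule uses symbols and brightness and no difference between the groups.

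Ventricles came from 6 male mice at 20 weeks of age on the C57BL/10 background, with 1 Affymetrix array per heart. Every mouse was dystrophin-deficient (mdx) and carried a single functional utrophin allele (utrn+/-), the model that the labels call "Het", so the untreated group is diseased and no healthy heart was compared. Finerenone was given to 3 of them at 100 ppm in the chow starting at 4 weeks (it is a non-steroidal blocker of the mineralocorticoid receptor), while 3 untreated mice had plain chow of the same kind. The labels call the mice biological replicates. Each value is a log2 signal, so a difference of 1 is a doubling, and levels of different genes are not compared because probe sets differ in brightness.

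Respiratory complexes pass electrons along the inner mitochondrial membrane and use the energy to make ATP. Complex II takes electrons from succinate, complex III hands electrons from ubiquinol to cytochrome c, complex IV passes them to oxygen, and complex V, the ATP synthase, turns the proton gradient into ATP. Heart muscle depends on this pathway more than most tissues, and several complex IV subunits exist in a muscle and a general isoform. A few core subunits of complexes III to V are encoded by mitochondrial DNA instead.

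The tissue label was borne out by cardiac markers. The cardiomyocyte list averaged 16.43 to 16.56 in treated and 16.38 to 16.60 in untreated hearts over 11 measured genes, with troponin T (Tnnt2) at 19.93. Untreated replicate 1 stood apart from the other arrays: its correlation with them over all transcript clusters ran from 0.989 to 0.992 (0.991 to 0.994 among the other 5 arrays), it had the lowest array weight in limma (0.687), and 23.5% of all genes had their lowest value on it. Results are therefore given with and without that array.

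Promoter letters are shown for 6 of the genes because these genes are among those with the largest differences below or carry a motif known from nuclear genes for mitochondria. Each line gives the 150 bases before the RefSeq transcription start, 5′ to 3′ on the strand of the gene, in assembly GRCm38.p6. Capitals mark the ETS motif of the GABP factor (CCGGAAG) or the motif of nuclear respiratory factor 1 (CGCATGCGC), searched on both strands.
Atp5e: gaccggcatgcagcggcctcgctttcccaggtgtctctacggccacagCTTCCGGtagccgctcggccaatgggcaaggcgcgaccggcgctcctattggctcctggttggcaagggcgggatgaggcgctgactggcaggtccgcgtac
Atp5k: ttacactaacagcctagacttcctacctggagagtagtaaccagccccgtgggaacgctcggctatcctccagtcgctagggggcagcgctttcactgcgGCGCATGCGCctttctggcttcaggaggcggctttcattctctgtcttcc
Uqcr11: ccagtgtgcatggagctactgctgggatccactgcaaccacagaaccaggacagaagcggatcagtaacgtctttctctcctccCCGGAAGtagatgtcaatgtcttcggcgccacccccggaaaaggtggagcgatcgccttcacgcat
Cox6a1: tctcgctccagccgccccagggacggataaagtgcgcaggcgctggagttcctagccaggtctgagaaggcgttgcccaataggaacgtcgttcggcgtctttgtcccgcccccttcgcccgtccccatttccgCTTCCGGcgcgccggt
Cox5b: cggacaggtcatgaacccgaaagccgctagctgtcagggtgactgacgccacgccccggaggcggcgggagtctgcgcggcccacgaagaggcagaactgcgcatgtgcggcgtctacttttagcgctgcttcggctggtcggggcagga
Sdha: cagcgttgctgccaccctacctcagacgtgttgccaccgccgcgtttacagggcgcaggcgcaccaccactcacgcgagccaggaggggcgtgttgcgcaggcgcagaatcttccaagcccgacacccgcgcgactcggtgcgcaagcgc
The windows lie at chr2:174464102-174464251 on the minus strand for Atp5e, chr5:108434400-108434549 on the minus strand for Atp5k and chr10:80406822-80406971 on the minus strand for Uqcr11. Those of Cox6a1, Cox5b and Sdha lie at chr5:115348959-115349108 (minus strand), chr1:36691337-36691486 (plus strand) and chr13:74350241-74350390 (minus strand). The ETS letters of Atp5e stood 102 to 96 bases before the start and those of Uqcr11 66 to 60, and the palindromic letters of Atp5k stood 50 to 41 bases before it. In Cox5b and Sdha neither motif was in the window shown.

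RefSeq promoters of 250 bases before the start were matched for 37 of the 50 genes, in 40 windows. The ETS motif was in 22.5% of these windows against 6.91% of all 32851 windows, and the nuclear respiratory factor 1 motif in 12.5% against 1.45%. The YY1 motif (AAGATGGCG), which can share its AAG with the end of the ETS motif, was in 5.0% against 0.61%, and the ERR motif (TCAAGGTCA) in 2.5% against 0.39%. The Sp1 motif (GGGCGG) was in 30.0% against 32.7% and the TATAAA letters were in 7.5% against 12.4%. The windows of these genes held a median of 14 CG pairs against 6 in all windows, and the part of base composition in these shares was not tested. These are letter matches and were not measured as binding.

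Across the 50 genes 39 had a higher and 11 a lower mean in treated hearts, and their median log2 difference was 0.15, against 58.2% of genes higher and a median of 0.03 over all 30142 genes. Without the testis isoforms Cox6b2, Cox7b2 and Cox8c and without Atp5sl, which encodes no subunit, 36 of 46 were higher, with a median of 0.15. After quantile normalization 31 of the 50 were higher. After a correction of each array for its trend with gene span and signal, 26 of 49 were higher, as Atp5l2 had no known span. In limma with Benjamini-Hochberg adjustment 0 of the 50 passed an adjusted p of 0.05, as did 0 of all genes (0.0%), and the smallest adjusted p among the 50 was 0.597. At an unadjusted p below 0.05 there were 8 higher genes (background 5.69%) and 1 lower gene (background 2.12%), 9 in all against 7.81% of all genes. The groups did not overlap for 8 higher genes (background 8.17%) and 1 lower gene (background 4.18%). Of these 8, Cycs and Atp5l were read from probe sets whose identifiers name another chromosome. On the brightest probe set of their own chromosome they differed by 0.08 and -0.04. Taking such probe sets, an alternative added with the values in view, 8 of the 50 had an unadjusted p below 0.05 in limma, against 9. The 50 genes are largely bright, however, and bright genes as a whole leaned the same way. Among the 1831 genes with a mean of at least 12, the median difference was 0.16, 73.5% were higher, 19.9% were higher and 2.24% lower at an unadjusted p below 0.05, and 17.6% were higher and 3.22% lower without overlap. For the 34 respiratory genes above that level the median was 0.15, with 26 higher (76.5%), 5 higher and 1 lower at an unadjusted p below 0.05, and 6 higher and 1 lower without overlap.

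Without untreated replicate 1 the median of the 50 genes was 0.05 and 37 were higher (background 58.1%). At an unadjusted p below 0.05 there were then 3 higher genes (Atp5d, Atp5e and Cox5b, background 4.5%) and 1 lower gene (Sdha, background 1.92%). These made 4 in all, against 6.43% of all genes. Without that array the groups did not overlap for 8 higher genes (background 13.9%), again with Cycs and Atp5l, and 2 lower genes (background 8.36%). The 1831 bright genes had a median of 0.11 without that array. On untreated replicate 1 itself 31 of the 50 genes (62.0%) had their lowest value, against 45.3% of the bright genes and 23.5% of all genes, and the median deviation of the 50 from their own means was -0.29 there. The other 5 arrays had median deviations of -0.02 to 0.10.

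**Figure D1:**
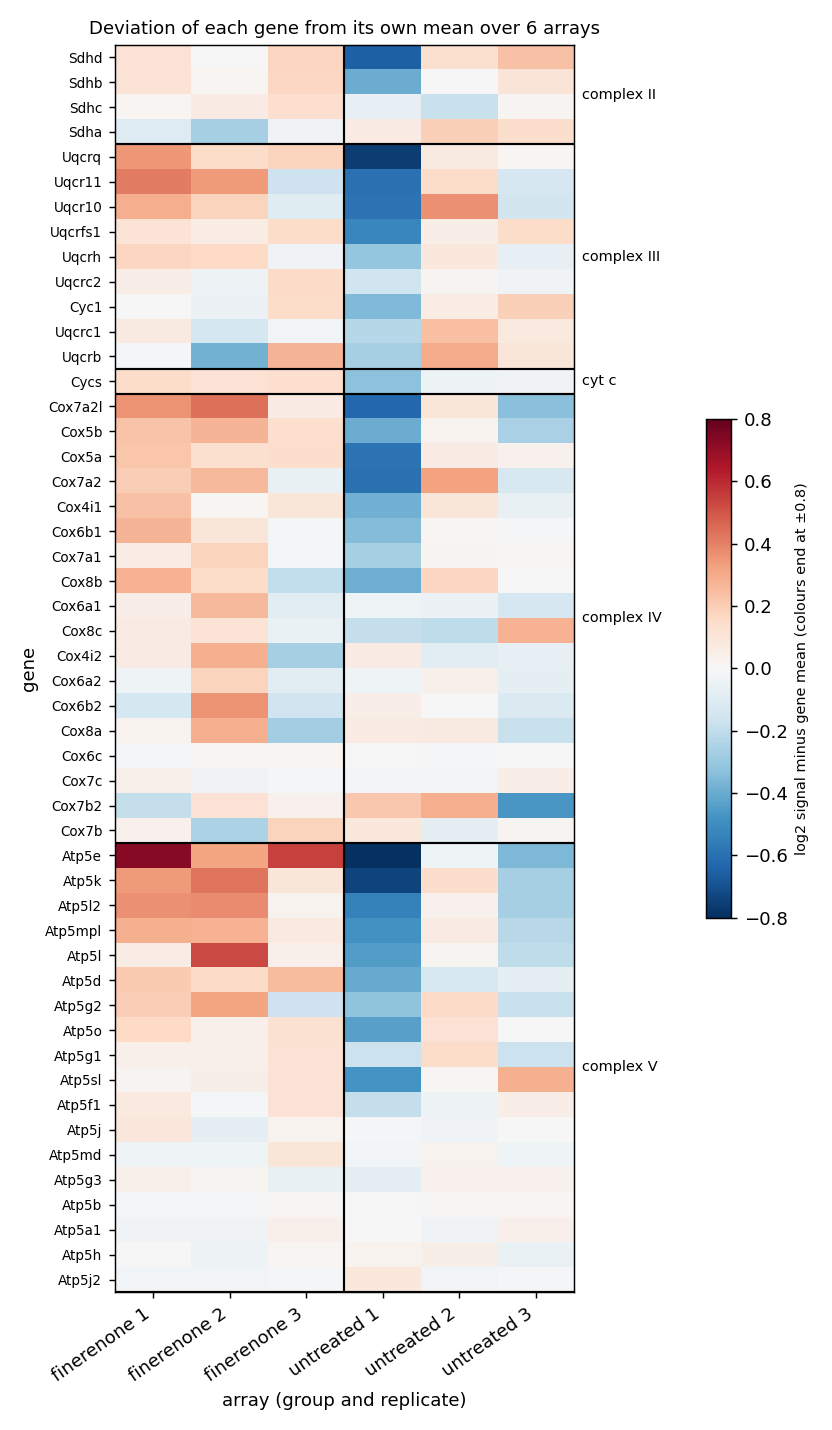
Deviation of the log2 signal of each of the 50 genes (rows, grouped by complex and ordered by difference) from its own mean over 6 arrays (columns); blue is below and red above that mean, with colours ending at ±0.8. Untreated replicate 1 is the bluest column, with a median deviation of -0.29, while Sdha runs the other way, blue in the finerenone columns.

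**Figure D2:**
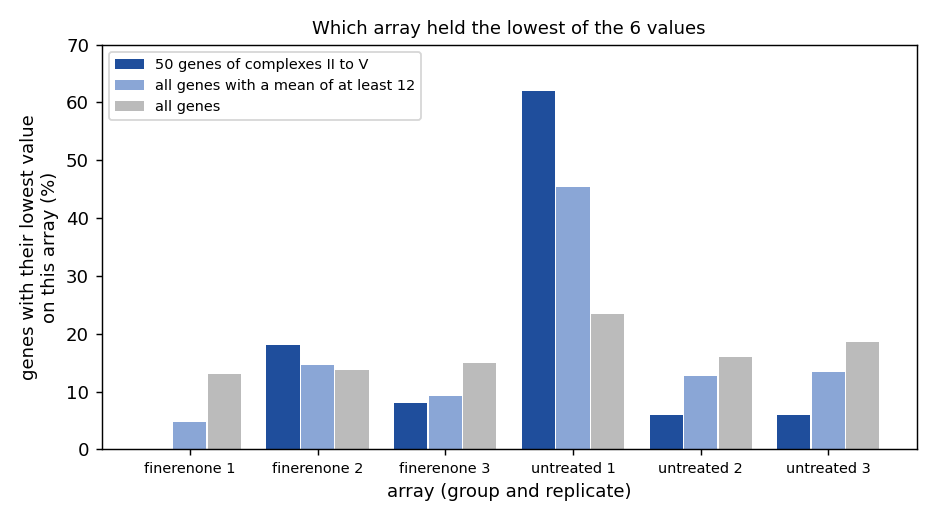
Share of genes whose lowest of 6 values fell on each array, for the 50 respiratory genes, the genes with a mean of at least 12 and all genes. Untreated replicate 1 held 62.0%, 45.3% and 23.5% of the lowest values of these sets, more than any other array in each set.

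Markers of other cells differed between the groups as well. All 10 measured endothelial markers had a lower mean in treated hearts (median -0.33), and their mean level ran from 10.87 to 11.04 in treated and 11.11 to 11.61 in untreated hearts, highest on untreated replicate 1. Without that array their median was -0.16, with Emcn at 0.05 and Pecam1 at 0.06. All 12 macrophage markers had a higher mean (median 0.32, and 0.26 without that array), with levels of 8.97 to 9.28 and 8.64 to 9.06. Of the 8 smooth muscle and pericyte markers 7 were lower (median -0.12, and -0.075 without that array), with levels of 8.60 to 8.86 in treated hearts and 8.71 to 9.19 in untreated ones, again highest on untreated replicate 1. Fibroblast markers had a median of 0.16, skeletal muscle markers -0.07, adipocyte markers -0.09 and atrial markers 0.20. Without untreated replicate 1 these medians were 0.13, 0.06, 0.03 and 0.09, so the sign turned for skeletal muscle and adipocyte markers. Alas2, the measured erythroid marker, ran from 10.52 to 12.58 in treated and 11.18 to 13.23 in untreated hearts. None of these markers passed the adjusted threshold. Fewer cells of a type and less RNA per cell cannot be told apart in whole ventricle, and the part of cell make-up in the values of the respiratory genes was not tested.

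Succinate dehydrogenase, complex II, split by subunit. Sdha, the flavoprotein that oxidises succinate, had the only lower value at an unadjusted p below 0.05 among the 50 genes. It measured 15.35, 15.18 and 15.42 in treated and 15.51, 15.64 and 15.59 in untreated hearts, so the groups did not overlap and all 3 treated hearts lay below. The log2 difference was -0.27 ± 0.09 (SE; 0.832-fold; unadjusted p = 0.0262, adjusted p = 0.607 in limma) and -0.30 ± 0.10 without untreated replicate 1. It was -0.43 after quantile normalization, and -0.20 without finerenone replicate 2.

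The other 3 subunits of complex II had higher means. Sdhb, the iron-sulfur subunit, measured 14.79, 14.70 and 14.85 in treated and 14.28, 14.68 and 14.79 in untreated hearts, with overlap and a difference of 0.19 ± 0.14 that was 0.04 without untreated replicate 1. Sdhd, a membrane anchor, measured 16.26, 16.14 and 16.31 against 15.48, 16.26 and 16.37, a difference of 0.19 ± 0.23 that turned to -0.08 without untreated replicate 1. Its low value on that array set the sign. Sdhc, the other anchor, measured 13.94, 13.99 and 14.06 against 13.86, 13.75 and 13.95, a difference of 0.15 ± 0.09 that was also 0.15 without that array. The median of the 4 subunits was 0.17, which was -0.02 without untreated replicate 1 and -0.004 after quantile normalization.

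In complex III, the cytochrome bc1 complex, 7 of 9 means were higher and the median was 0.20, but 0.01 without untreated replicate 1. Of its 9 genes 8 had their lowest value on untreated replicate 1, and 0 had an unadjusted p below 0.05 (background 7.81%). The largest difference was in Uqcrq, a small subunit that sits beside cytochrome b. Uqcrq measured 14.75, 14.55 and 14.59 in treated and 13.65, 14.48 and 14.42 in untreated hearts, without overlap. Its difference was 0.45 ± 0.23 (SE; unadjusted p = 0.0931, adjusted p = 0.690 in limma) and 0.18 ± 0.10 without untreated replicate 1, so most of it rested on that array. Uqcr11, another small subunit, measured 10.97, 10.90 and 10.39 against 9.96, 10.70 and 10.42, with overlap, a difference of 0.39 ± 0.23 and one of 0.19 without untreated replicate 1. Its promoter holds the ETS letters printed above.

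Among the larger parts of complex III, the Rieske iron-sulfur protein Uqcrfs1 measured 10.70, 10.65 and 10.73 in treated and 10.06, 10.64 and 10.73 in untreated hearts. Untreated replicates 2 and 3 lay beside the treated hearts, and the difference of 0.22 ± 0.18 was 0.01 without untreated replicate 1. Cyc1, the cytochrome c1 that hands electrons to cytochrome c, measured 14.32, 14.27 and 14.46 against 13.97, 14.38 and 14.51, a difference of 0.07 ± 0.15 that was -0.09 without untreated replicate 1, -0.01 after cyclic loess and -0.05 after quantile normalization. Uqcrc2, a core protein, differed by 0.11 ± 0.09 and Uqcrh, the hinge protein, by 0.20 ± 0.12, and without untreated replicate 1 these were 0.06 and 0.09. After quantile normalization Uqcrh turned to -0.03. The core protein Uqcrc1 and the small subunit Uqcrb had lower means, by -0.06 ± 0.14 and -0.08 ± 0.21, and without untreated replicate 1 by -0.19 and -0.24. Uqcrc1 then no longer overlapped. Uqcr10 differed by 0.25 ± 0.25 and by 0.01 without that array.

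Cytochrome c (Cycs), the soluble carrier between complexes III and IV, measured 19.80, 19.77 and 19.79 in treated and 19.32, 19.62 and 19.63 in untreated hearts, without overlap. The difference was 0.26 ± 0.10 (SE; unadjusted p = 0.0428, adjusted p = 0.625 in limma), and 0.16 ± 0.08 without untreated replicate 1. This probe set lay close to the highest value in the table, 19.93. Its identifier names chromosome 19, while the RefSeq gene lies on chromosome 6. The probe set whose identifier names chromosome 6 measured 16.00, 16.06 and 16.00 in treated and 15.76, 16.04 and 16.04 in untreated hearts, a difference of 0.08 that was -0.02 without untreated replicate 1. The value for cytochrome c therefore depended on which probe set was taken.

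**Figure D3:**
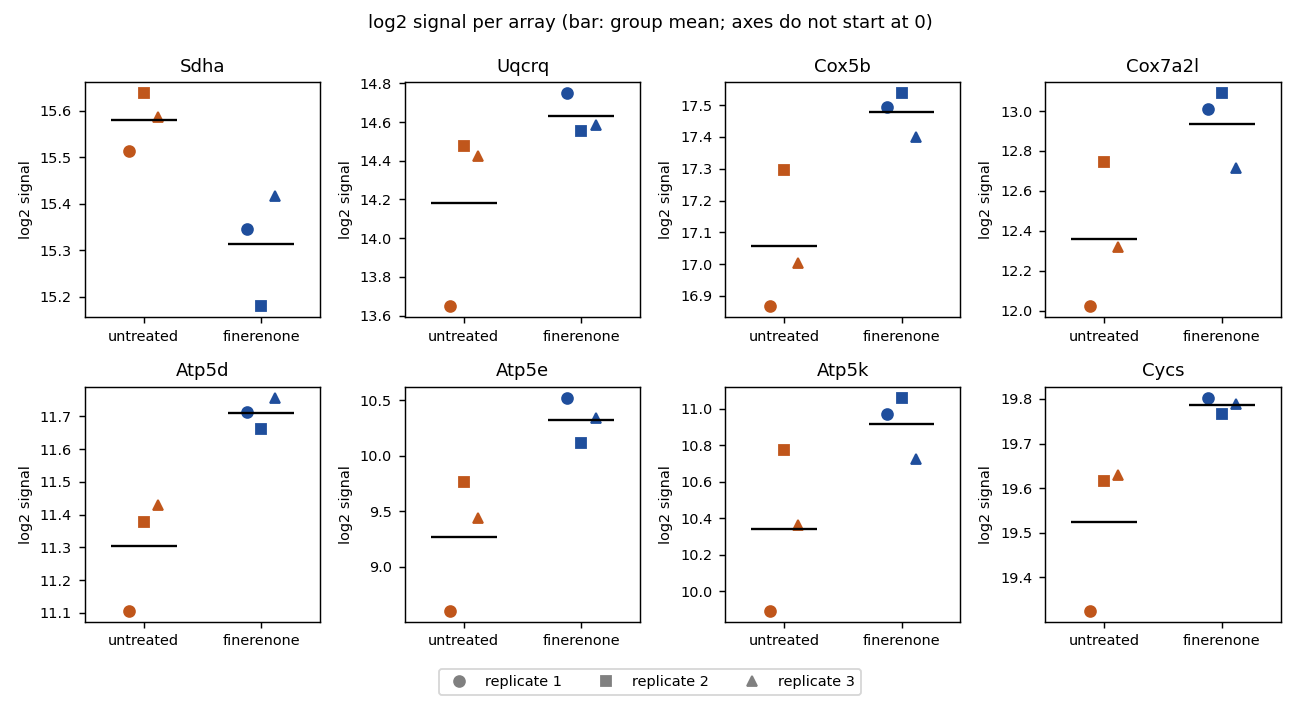
log2 signal of 8 genes on each array (points, with the replicate number as the marker shape) and the mean of each group of 3 (bars); the vertical axes do not start at 0. Sdha is lower in all 3 treated hearts, Uqcrq, Cox5b, Atp5d, Atp5e and Cycs are higher in all 3, and Cox7a2l and Atp5k overlap. Cycs is shown on its brightest probe set, whose identifier names chromosome 19, not the chromosome of the gene.

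Complex IV, cytochrome c oxidase, showed higher means for 15 of 18 genes, including the testis isoforms Cox6b2 and Cox8c. The median was 0.11 (0.07 without untreated replicate 1). Once each array was corrected for its trend with gene length on the genome (span) and brightness, the median was 0.00. An unadjusted p below 0.05 was found for 2 of the 18 genes, both higher. Over all genes 5.69% were higher at that p, and 19.9% of the 1831 genes with a mean of at least 12. The first of the 2 is Cox5b, a zinc-binding subunit of all tissues. Cox5b measured 17.49, 17.54 and 17.40 in treated and 16.87, 17.30 and 17.00 in untreated hearts, without overlap. Its difference was 0.42 ± 0.12 (SE; 1.34-fold; unadjusted p = 0.0134, adjusted p = 0.597 in limma), and 0.33 ± 0.12 without untreated replicate 1. The other is Cox7a2l, also known as Scaf1, which joins complexes III and IV into supercomplexes. Cox7a2l measured 13.01, 13.09 and 12.71 against 12.02, 12.74 and 12.32, with treated replicate 3 just below untreated replicate 2. Its difference was 0.58 ± 0.20 (1.49-fold; unadjusted p = 0.0259) and 0.41 ± 0.18 without untreated replicate 1.

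Cox5a, the partner of Cox5b, measured 16.65, 16.55 and 16.57 in treated and 15.84, 16.49 and 16.46 in untreated hearts. The groups did not overlap, but untreated replicates 2 and 3 lay within 0.1 of the lowest treated heart, and the difference of 0.33 ± 0.18 was 0.11 ± 0.08 without untreated replicate 1. Cox6b1, which joins the monomers of the enzyme, measured 19.58, 19.41 and 19.30 against 18.97, 19.33 and 19.30, a difference of 0.23 ± 0.13 close to the ceiling of the scale, and of 0.12 without untreated replicate 1. Cox7b differed by -0.03 ± 0.13. Cox6c and Cox7c differed by 0.01 ± 0.07 and -0.004 ± 0.07, and their values spanned 0.03 and 0.08 over all 6 arrays. The testis isoforms Cox6b2, Cox7b2 and Cox8c had means of 4.33 to 4.98, under the median that negative controls reached on each array (5.04 to 5.33), and give no measurable level.

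Isoform pairs were compared by the change of their within-array log2 ratio, since absolute levels of 2 probe sets cannot be set against each other. The muscle isoform Cox6a2 measured 17.85, 18.06 and 17.80 in treated and 17.85, 17.92 and 17.81 in untreated hearts, and the general isoform Cox6a1 measured 13.34, 13.55 and 13.20 against 13.26, 13.24 and 13.15. The ratio of Cox6a2 to Cox6a1 was lower by a mean of -0.10 ± 0.04 (SE, n = 3 each; exact permutation p = 0.2, adjusted p = 0.6 over 6 pairs), with overlap between the groups, and by -0.13 without untreated replicate 1. The muscle isoform Cox7a1 measured 19.47, 19.59 and 19.39 against 19.14, 19.43 and 19.42, and the general isoform Cox7a2 measured 16.24, 16.30 and 15.98 against 15.45, 16.37 and 15.92. Their ratio differed by -0.11 ± 0.19 and by 0.02 without untreated replicate 1. Both isoforms were lowest on that array, and Cox7a1 lay close to the ceiling of the scale.

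For the remaining complex IV pairs, Cox8b, the muscle isoform, measured 15.32, 15.19 and 14.84 in treated and 14.65, 15.21 and 15.04 in untreated hearts, and Cox8a 13.60, 13.86 and 13.29 against 13.64, 13.64 and 13.39. The ratio of Cox8b to Cox8a differed by 0.13 ± 0.23, and by -0.07 without untreated replicate 1. Cox4i1 measured 11.58, 11.36 and 11.45 against 10.96, 11.44 and 11.29, a difference of 0.23 ± 0.14, and the hypoxia-linked isoform Cox4i2 measured 6.51, 6.73 and 6.18 against 6.51, 6.36 and 6.38. The ratio of Cox4i2 to Cox4i1 differed by -0.18 ± 0.27, and by 0.006 without untreated replicate 1, where Cox4i1 differed by 0.10. With 3 arrays against 3 the two-sided exact permutation test cannot give a p below 0.1, and over all 6 pairs, including those of the c subunit below, p ran from 0.2 to 0.7 (adjusted p = 0.6 to 0.7). None of the pairs separated the groups.

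In complex V the means of 13 of 18 genes were higher, including Atp5sl, which encodes no subunit. The median was 0.13 (0.05 without untreated replicate 1). It was -0.008 with the span and level trend removed, where Atp5l2 was left out for want of a known span. The differences of complex V ran from -0.04 to 1.06, the widest spread of the 4 complexes. Atp5e encodes the epsilon subunit of the central stalk. It measured 10.52, 10.11 and 10.34 in treated and 8.60, 9.76 and 9.44 in untreated hearts. The groups did not overlap, and untreated replicate 1 lay more than 0.8 below the next heart. The difference was 1.06 ± 0.30 (SE; 2.08-fold; unadjusted p = 0.0105, adjusted p = 0.597 in limma), and 0.72 ± 0.17 without untreated replicate 1.

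Atp5d, the delta subunit of the same stalk, measured 11.71, 11.66 and 11.76 in treated and 11.11, 11.38 and 11.43 in untreated hearts. The treated hearts lay within 0.1 of each other and above every untreated heart. The difference was 0.41 ± 0.11 (SE; 1.33-fold; unadjusted p = 0.00772, adjusted p = 0.597 in limma) and 0.31 ± 0.08 without untreated replicate 1. Atp5d had the smallest unadjusted p of the 50 genes and Atp5e the largest difference, and both kept their sign in every alternative run, from 0.28 to 0.47 for Atp5d and from 0.72 to 1.305 for Atp5e.

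Among small subunits of the membrane part the differences varied by probe set. Atp5j2 and Atp5md of that part differed by -0.04 and 0.02, and their values spanned only 0.11 and 0.14 over all 6 arrays. Whether such flat probe sets could register a difference was not tested. Others had higher means, and none passed the adjusted threshold. Atp5k, the e subunit that shapes the dimer of the enzyme, measured 10.97, 11.06 and 10.73 in treated and 9.89, 10.77 and 10.36 in untreated hearts, with overlap and a difference of 0.58 ± 0.23 (SE; unadjusted p = 0.0406). Without untreated replicate 1 the difference was 0.35 ± 0.17. Atp5mpl, a small proteolipid of the enzyme, measured 19.72, 19.72 and 19.52 against 18.95, 19.50 and 19.21, a difference of 0.43 ± 0.15 and 0.29 without untreated replicate 1, near the ceiling. Atp5l encodes the g subunit, and Atp5l2 is a close copy of it, so their signals may not be separable. Atp5l2 measured 18.08, 18.09 and 17.74 against 17.17, 17.74 and 17.44, a difference of 0.52 ± 0.17 and 0.37 without untreated replicate 1. For Atp5l the brightest probe set carries an identifier of chromosome 5 and differed by 0.42, but the gene lies on chromosome 9, and the brighter of 2 probe sets of chromosome 9 differed by -0.04, with all 6 values between 9.55 and 9.65.

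The catalytic subunits of complex V had nearly equal deposited values in all hearts. Atp5a1, the alpha subunit, measured 17.99, 17.99 and 18.06 in treated and 18.02, 17.99 and 18.06 in untreated hearts, a difference of -0.01 ± 0.07. Atp5b, the beta subunit, measured 16.09, 16.08 and 16.11 against 16.10, 16.11 and 16.11, a difference of -0.01 ± 0.07. After quantile normalization Atp5b was at -0.29 (unadjusted p = 0.0163) and Atp5a1 at -0.03, and after the span and level correction they were at -0.16 and -0.15. Atp5h (d subunit), Atp5j2 (f subunit), Atp5md and Atp5j differed by -0.02, -0.04, 0.02 and 0.03. A span below 0.1 over all 6 arrays was found for 5 of the 50 genes (Atp5a1, Atp5b, Atp5h, Cox6c and Cox7c; 10.0%), against 1.64% of all genes and 7.76% of the 1831 bright genes. Some probe sets of other abundant heart transcripts were as flat. Mb (myoglobin) had a mean of 10.52 in treated and 10.53 in untreated hearts. Pln (phospholamban) measured 19.46 to 19.48 in treated hearts and 19.46 in each untreated one. Others of the cardiomyocyte list varied more, such as Ckm (14.905 to 16.108 over all arrays) and Ttn (16.144 to 17.123). Whether the flat probe sets could register a difference was not tested.

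The c subunit, which forms the rotating ring, is made from 3 genes. Atp5g1 measured 13.02, 13.02 and 13.10 in treated and 12.81, 13.13 and 12.81 in untreated hearts, Atp5g2 measured 17.80, 17.91 and 17.43 against 17.28, 17.75 and 17.42, and Atp5g3 measured 13.92, 13.90 and 13.82 against 13.81, 13.92 and 13.92. The ratio of Atp5g1 to Atp5g3 differed by 0.13 ± 0.11 and that of Atp5g2 to Atp5g3 by 0.23 ± 0.17 (exact permutation p = 0.3 and p = 0.2), or 0.11 and 0.16 without untreated replicate 1, and the groups overlapped in both. Of the peripheral stalk genes, Atp5f1 (now Atp5pb) and Atp5o differed by 0.12 ± 0.09 and 0.21 ± 0.15, and by 0.05 each without untreated replicate 1. Atp5h and Atp5j of the same stalk differed by -0.02 and 0.03. Atp5sl (now Dmac2) carries an old ATP synthase name but encodes no subunit of the enzyme, and differed by 0.12 ± 0.19, or by -0.08 without untreated replicate 1. Atpif1, the inhibitor that stops the enzyme from running backwards, is outside the 50 genes and differed by 0.20 ± 0.13.

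**Figure D4:**
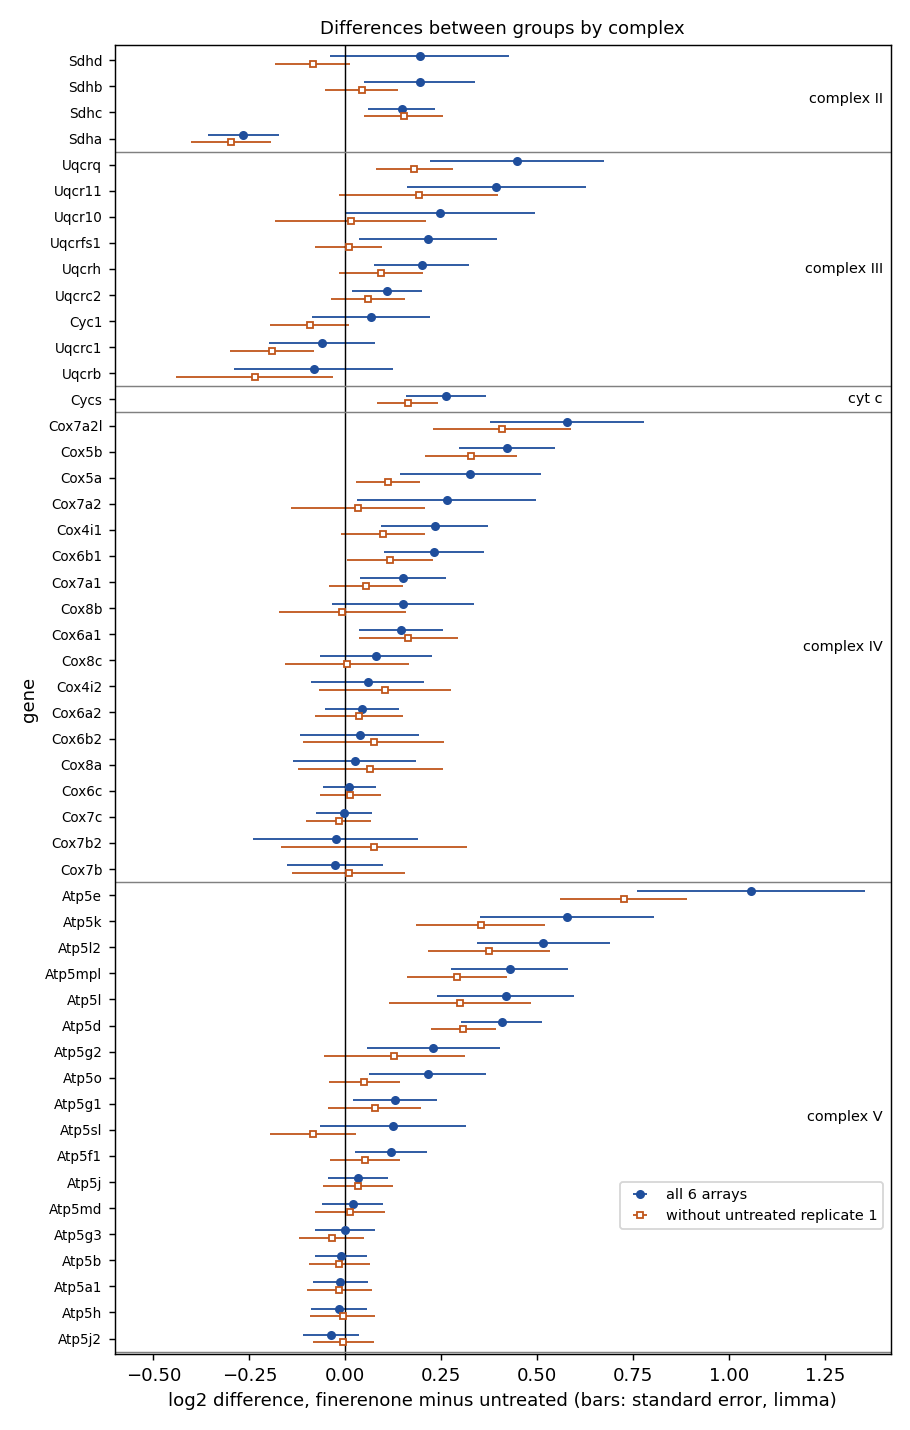
log2 difference between finerenone and untreated hearts for each of the 50 genes, grouped by complex, with all 6 arrays (filled circles) and without untreated replicate 1 (open squares); bars are standard errors from limma. Atp5e has the largest difference, 1.06 with all arrays and 0.72 without that array, and most squares lie closer to 0 than their circles.

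Genes that build and regulate these complexes were set beside the subunits. Of 30 measured assembly factors of complexes II to V, 27 had a higher mean and 3 a lower one, with a median of 0.17 (0.04 without untreated replicate 1), against 58.2% higher over all genes. Without that array the sign turned for Surf1, Sdhaf3, Coa5, Coa6, Hccs, Cox11, Cox20, Atpaf2, Sco1, Taco1 and Sdhaf1, and stayed for the others. With all arrays 3 had an unadjusted p below 0.05 in limma, all higher, against 5.69% of all genes, and 0 passed the adjusted threshold. Cmc1, which assists the assembly of complex IV, had means of 8.89 ± 0.07 (treated, SD, n = 3) and 8.52 ± 0.06 (untreated, SD, n = 3), a difference of 0.38 ± 0.08 (SE; adjusted p = 0.597 in limma) that was 0.38 without untreated replicate 1. Fmc1, an assembly factor of complex V, differed by 0.33 ± 0.10, and by 0.26 without that array. Both group means of Fmc1 were near background, close to the median that negative controls reached on each array (5.04 to 5.33). The mean level of this list ran from 8.37 to 8.53 in treated hearts and was 7.95, 8.44 and 8.39 in the untreated ones, so untreated replicate 1 was again the lowest.

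Regulators of mitochondrial biogenesis had higher means for 6 and lower means for 9 of 15 genes (median -0.03). Pprc1, a coactivator of the PGC-1 family, differed by -0.20 ± 0.08 (SE; unadjusted p = 0.0435, adjusted p = 0.625 in limma), near background at 5.53 and 5.73, and Gabpa, which binds the ETS motif, by -0.14 ± 0.09. Ppargc1a (PGC-1 alpha) differed by 0.34 ± 0.26. Without untreated replicate 1 the values were -0.20, -0.09 and 0.26, and the median of the list was -0.08. Carriers and channels that exchange nucleotides and phosphate around the ATP synthase included 5 of 7 with higher means, the median being 0.11 (0.005 without untreated replicate 1), with Vdac2 at 0.23 ± 0.12 and Vdac1 at 0.12 ± 0.09 (0.18 and 0.04 without untreated replicate 1). Of the subunits encoded by mitochondrial DNA, mt-Co1 differed by 0.07 ± 0.09 and mt-Co2 by -0.001 ± 0.07. For mt-Co1 the difference came from finerenone replicate 2 (17.886), as every other array read 17.663 to 17.665. All values of mt-Co2 lay between 18.886 and 18.889, and whether such flat probe sets could register a difference was not tested. The probe sets for Cytb and for Atp6, Atp8 and Co3 lay at the ceiling, 19.93, on every array, the highest value in the table.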

How the data were processed

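Total RNA of heart ventricles from 6 mice was measured on 1 Affymetrix array each. The deposited values are log2 signals per probe set that the authors made by RMA, with Expression Console and the Transcriptome Analysis Console of Affymetrix named in the submitters' processing notes; versions and genome build: not given in the sources used here. RMA corrects background, equalises the arrays' distributions of probes and combines probes, so a shift shared by all genes cannot be seen. The combined values still differed in distribution. The 1831 genes with a mean of at least 12 averaged 15.308 on finerenone replicate 1 and 14.925 on untreated replicate 1. RNA integrity numbers were above 7.3, per the labels' protocols. Values ran from 1.94 to 19.93 and the medians of the arrays from 4.43 to 4.48. The number of arrays limits the precision.

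Of 65956 transcript clusters 30604 had 1 symbol, 2146 several and 33206 none in the platform annotation; symbols were updated by Entrez identifier to RefSeq, and the brightest cluster per gene gave 30142 genes. Members were matched on the platform's own symbols (55 probe sets, 50 genes). Differences were fitted in limma 3.58.1 (R 4.3.3; lmFit, eBayes, no covariate, two-sided) over all genes, with Benjamini-Hochberg adjustment and a threshold of 0.05. On simulated data the fit recovered 67 of 100 genes changed by 1 and 89 of 100 changed by 2 on the log2 scale among 30142, with 9 false calls. The simulated noise was independent, with no outlying array and no shared shift of bright genes. These shares are therefore a check of the fit and not the power in these hearts. Isoform ratios were tested by exact permutation (scipy 1.17.1), promoters with Python 3.11.15 and pandas 2.3.3, and plots used matplotlib 3.10.9. Promoter sequences are from RefSeq, GRCm38.p6; the nuclear respiratory factor 1 motif was shortened by a base after a first search had been seen.

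The genes and lists were chosen with earlier results of these data known. Per complex the 5 genes with the smallest unadjusted p were described, with isoform, catalytic and carrier genes always; the level of at least 12 and the range below 0.1 were picked with the values in view, as were the motifs, Atp5l, Mb and Pln as examples. Of each further list the 2 genes with the smallest p were described, and Ppargc1a was added. Replicate numbers were not taken as pairs in the main fit. Deviations of same-numbered arrays correlated at -0.154, 0.059 and 0.058, and those of other-numbered arrays at -0.174 to 0.122. With so few arrays these values cannot show whether the mice were paired. Other members and the markers are named with their values seen. Groups of 3 are too small for a test of single outlying samples.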

Additional observations from a re-analysis of the deposited data

How the results depend on the processing

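Over quantile normalization, cyclic loess, median centring, 2 filters on dim genes, the mean of a gene's probe sets, all transcript clusters, a trended robust prior, array weights, a correction for span and level, the replicate block and each array left out, 0 of the 50 genes and 0 of all genes passed an adjusted p of 0.05, and 0 of the 50 passed one of 0.1. The median of the 50 was lowest, 0.02 over 49 of them, after the correction for span and level, and at most 0.15 in settings with all arrays. Medians were 0.05 to 0.20 with single arrays left out. Leaving out single arrays gave 3 to 12 of the 50 at an unadjusted p below 0.05, against 9, and 1691 to 2789 of all genes; there were 3 of the 50 without finerenone replicate 1 or finerenone replicate 2, and 4 without untreated replicate 1 or untreated replicate 3. Over all genes that number was 2353, and it was 4138 over all transcript clusters, 1490 among genes at or above the negative controls and 1305 among genes with a mean of at least 6; fewer or more features were tested there. The replicate number as a replicate block gave 8 of the 50 at an unadjusted p below 0.05, a median of 0.15 and 2319 of all genes at that p, and it changed no adjusted call. Without untreated replicate 2 there were 12 such genes of the 50.

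Correcting each array for span and level centres the differences by construction. The medians were then 0.00 for complex IV, -0.008 for complex V (without Atp5l2) and 0.115 for cytochrome c. On the probe set of its own chromosome, an alternative added with the values in view, cytochrome c was at 0.075. Complex II was at -0.004 after quantile normalization and between -0.021 and 0.245 when single arrays were dropped.

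Of the 50 genes 39 were higher with all arrays, 35 after cyclic loess, 31 after quantile normalization and 37 to 43 with single arrays left out. After the span and level correction 26 of 49 were higher. The sign turned for the genes that follow, and for others of the 50 that are counted above but not listed. The differences of the listed genes ran up to 0.20 with all arrays, and the cause was not tested. After cyclic loess Cox6a2 was at -0.032, Cox8a at -0.059 and Cyc1 at -0.011. After quantile normalization Cox8a was at -0.117, Cox8b at -0.021, Cyc1 at -0.048, Sdhd at -0.023 and Uqcrh at -0.032. After the span and level correction Atp5g1 was at -0.033, Cox6a1 at -0.015, Cox6a2 at -0.149, Cox7a1 at -0.018, Cox8a at -0.144, Cox8b at -0.035, Cyc1 at -0.101 and Uqcrc2 at -0.007. Dropping single arrays moved Cox4i2 between -0.071 and 0.204, Cox6a2 between -0.037 and 0.095 and Cox8a between -0.113 and 0.171. Cox8b then ran between -0.007 and 0.287, Cyc1 between -0.092 and 0.18 and Sdhd between -0.084 and 0.359. Atp5a1 ran between -0.035 and 0.005 and Atp5g3 between -0.035 and 0.029. Sdha stayed negative (-0.43 to -0.20) and Atp5d, Atp5e, Cox5b and Cox7a2l positive in every setting run, though with adjusted p-values of 0.409 to 0.87.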
